A study of Mus musculus with 8 samples.

Results

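Cells without RelA and cRel were compared with wild-type cells late in their response to tumour necrosis factor (TNF), at 45 and 60 min. Chromatin-associated RNA, that is, RNA that stays with the chromatin while genes are read, had been sequenced from embryonic fibroblasts cultured from C57BL/6 mice (primary cells). The comparison uses 4 of the 8 libraries: wild type (WT) at 45 and 60 min, and crel-/-rela-/- cells (the knockout, KO) at 45 and 60 min. The 4 libraries at 0 and 15 min serve to show which gaps were there before TNF and which were not. All cells came from embryos and were starved overnight in medium with 0.5% calf serum. They then received TNF at 10 ng/ml, except that the 0 min libraries are labelled as controls. Each genotype and time has 1 library, and nothing says that libraries came from separate cultures or animals. The 45 and 60 min libraries therefore stand in as 2 per genotype, with time as a block, and p-values measure only how far, over all genes, the gap at 45 min differed from the gap at 60 min. The series title asks how RelA target genes are regulated in the inflammatory response. No library was left untreated for 45 or 60 min, so effects of TNF and of time in culture cannot be told apart.

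NF-kB is a family of dimeric transcription factors held in the cytoplasm by inhibitor proteins. TNF leads to the loss of the inhibitor, and dimers that contain RelA or cRel enter the nucleus, bind kB sites and activate inflammatory genes, among them the genes of their own inhibitors. In fibroblasts these targets include chemokines, adhesion molecules, survival genes and genes of antigen presentation. Some targets are silent until the stimulus, while others are kept at a low level by NF-kB in unstimulated cells, so a gap between genotypes can exist before TNF is given.

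At 45 and 60 min, 1859 of 13917 genes were lower in KO (13.4%) and 1444 were higher (10.4%), together 23.7% of those tested (edgeR, quasi-likelihood F test, p adjusted by Benjamini-Hochberg under 0.05). A gap of 2-fold or more was fitted for 831 of the lower and 328 of the higher genes, and one of 4-fold or more for 352 and 58. Genes of the X and Y chromosomes were set aside. Each called gene was then placed by the ratio of KO to WT at 0 min, from TMM-scaled counts. Among the lower genes, 340 (18.3%) were already 2-fold or more lower at 0 min, 1340 (72.1%) were not, 10 were 2-fold or more higher at 0 min, and 169 had under 20 counts in both 0 min libraries. Among the higher genes, the same classes held 124, 1247, 2 and 71.

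The size of the late gap differed between these classes. Lower genes with a gap at 0 min had a median log2 gap of -1.84 at 0 min and -2.03 late, and in both genotypes their median change from 0 min to the late libraries was small (-0.15 in WT, -0.18 in KO). Lower genes without one had a median of -0.16 at 0 min and -0.68 late, beside 0.02 late over all tested genes. To be without a gap here means less than 2-fold apart, not level. In 641 of the 1340 lower genes of this class the counting interval of the 0 min ratio excluded equal levels. In 1115 the interval lay within 2-fold. For the 1247 higher genes without a gap these counts were 560 and 1056. Of the 1340 lower genes without a gap, 352 reached a late gap of 2-fold and 57 one of 4-fold. In 299 of them WT stood 2-fold or more above its own 0 min level late, and in 67 KO stood 2-fold or more below its own. The share of all tested genes that did so was not counted. The 169 genes with too few counts at 0 min all had a late gap of 2-fold or more, with a median of -2.67. Where late counts are few as well, only a large gap can pass the test. This median is therefore not set against those of the other classes. These medians describe genes selected by their late gap, and a 0 min ratio rests on 1 library a side.

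Whether the late gap differed from the gap at 0 min was tested over 6 libraries. The gap had moved downward in KO for 476 genes (3.42% of 13917) and upward for 159 (1.14%), together 4.56% (edgeR quasi-likelihood test of the difference between the gaps). This change passed in 368 of the 1340 lower genes without a gap at 0 min, and in 21 of the 340 that had one. The classes and this test use the same 0 min libraries, so these counts, and the changes given for genes named from a class, are a description and support nothing further. Among the higher genes without a gap at 0 min, 110 of 1247 passed upward. Past the 2-fold line in single pairs of libraries, counted over genes with 20 counts or more in the higher library, 3.72% were lower and 2.09% higher in KO at 0 min. At 15 min the lower and higher shares were 4.11% and 2.12%. They were 6.6% and 3.32% at 45 min, then 6.73% and 2.85% at 60 min.

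**Figure D1:**
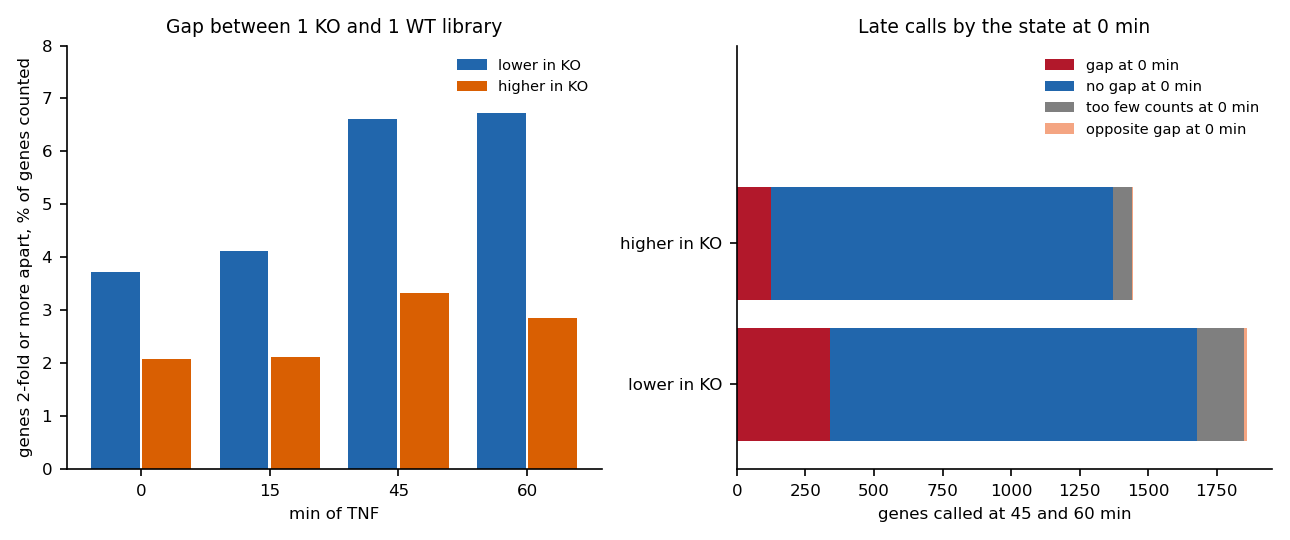
Left, share of genes that were 2-fold or more apart between the KO and the WT library at each time, in % of genes with at least 20 counts in the higher library: the share lower in KO went from 3.72% at 0 min to 6.73% at 60 min. Right, number of genes called at 45 and 60 min in each direction, coloured by the state at 0 min: most had no gap of 2-fold at 0 min (1340 of 1859 lower, 1247 of 1444 higher).

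Library totals ran from 12359817 to 15607331 counts, of which 58.92% to 70.62% fell on 3 gene models, so 3948194 to 5644974 counts per library were left for all other genes. Counts are given as deposited, and a library is called higher or lower than another by CPM, its counts scaled to a common TMM-adjusted library size. Fibroblast markers were present in every library, with a summed level of 6261 to 8834 CPM in WT and 5700 to 7702 in KO. Of 15 macrophage and leukocyte markers tested, 13 were lower in KO late (13.4% of all tested genes were), 12 of them with a gap at 0 min. Their summed level was 86.4 to 118 CPM in the WT libraries and 8.14 to 10.4 CPM in KO. The KO 0 min library stood apart in cartilage and bone markers, at 822 CPM against 226 to 331 CPM in the other 7. The late libraries differed in these markers as well. Of 10 tested, 7 were higher in KO late and 0 lower, where 10.4% of all tested genes were higher. The list of 12 epithelial markers stood at 34.7 CPM in the KO 0 min library against 2.85 to 6.06 CPM in the other 7. Of the 34.7 CPM, Tg alone gave 19.7 and Krt19 gave 6.72, the only 2 members with enough counts to be tested. The sum is therefore not read as a sign of epithelial cells. Xist, which is set aside with the X chromosome, was at 1278 to 1569 CPM in WT and 0.95 to 2.31 CPM in KO, and 4 Y genes summed to 65.3 to 77.4 CPM and 136 to 175 CPM, so the sex makeup of the cultures differed with genotype. In such bulk samples fewer cells of a type and less RNA per cell cannot be told apart.

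Both targeted genes still had counts in KO, given here as 1 count over the gene model. Rela (chromosome 19, 5637483 to 5648130, mm10) had late WT counts of 704 and 589 against KO counts of 291 and 324, a log2 gap of -0.96 ± 0.12 (SE). Rel (chromosome 11, 23736847 to 23770970), which encodes cRel, had late WT counts of 805 and 506 against KO counts of 538 and 633, and did not pass the late test (-0.03 ± 0.12). At 0 min Rel had been higher in KO, with 478 counts against 151. Which exons the 2 knockout alleles lack was not given by the labels, and gene-wide counts therefore do not check the genotype. Of 204 tested genes within 5 Mb of Rela, 14.7% were called in either direction, and of 36 within 5 Mb of Rel, 27.8%, against 23.7% of all tested genes.

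The promoters of 4 genes are shown to set a match to the NF-kB consensus beside the values of its gene. They were chosen for holding a match: the first 3 belong to the genes without a gap at 0 min with the largest late gaps, and the last to a gene that had one. Among genes with similar gaps, Tnfaip2, Stx11 and Icam1 (no gap at 0 min) and Lyz2, Nlrp1b, Cd84, Ms4a14 and Cd180 (a gap) had a window without a match. Each is the run of 250 bases just before the RefSeq start of the gene on build GRCm38.p6 (the build called mm10 in the deposited table), written 5′ to 3′ on the strand of the gene. Capitals mark matches to the 10-base NF-kB consensus, searched on both strands. Matches that overlap are joined in 1 run of capitals.
Casp4, chr9:5308599-5308848, plus strand: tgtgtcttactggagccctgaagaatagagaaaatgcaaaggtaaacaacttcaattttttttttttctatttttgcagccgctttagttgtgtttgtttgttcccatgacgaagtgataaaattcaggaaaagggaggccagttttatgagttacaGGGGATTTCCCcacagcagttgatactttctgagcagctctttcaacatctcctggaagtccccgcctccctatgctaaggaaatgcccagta
Cxcl1, chr5:90890995-90891244, plus strand: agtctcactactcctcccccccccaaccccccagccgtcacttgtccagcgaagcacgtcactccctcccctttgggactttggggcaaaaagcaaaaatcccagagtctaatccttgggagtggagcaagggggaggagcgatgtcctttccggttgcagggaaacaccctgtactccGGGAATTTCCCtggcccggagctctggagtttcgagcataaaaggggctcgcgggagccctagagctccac
Nfkbia, chr12:55492648-55492897, minus strand: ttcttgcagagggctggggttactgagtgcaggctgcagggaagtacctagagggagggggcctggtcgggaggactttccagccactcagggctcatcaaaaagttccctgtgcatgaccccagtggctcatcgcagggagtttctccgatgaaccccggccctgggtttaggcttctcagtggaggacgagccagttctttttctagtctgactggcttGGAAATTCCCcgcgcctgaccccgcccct
Nlrp3, chr11:59541319-59541568, plus strand: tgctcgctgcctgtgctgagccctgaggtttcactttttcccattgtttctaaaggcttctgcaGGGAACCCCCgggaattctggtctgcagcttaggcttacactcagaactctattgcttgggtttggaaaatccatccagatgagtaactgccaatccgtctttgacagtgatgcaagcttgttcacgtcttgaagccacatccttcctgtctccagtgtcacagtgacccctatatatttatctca

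In Casp4, 3 overlapping matches lay 93 to 83 bases before the start. Cxcl1 had 2, 71 to 61 bases before it, Nfkbia had 1 at 29 to 20 bases, and Nlrp3 had 1 at 186 to 177 bases. RefSeq windows from 250 bases before to 50 after the start were found for 9629 of the 13917 tested genes, and 5.28% of these held at least 1 match. The share was 4.37% among genes not called late and 4.59% among higher genes without a gap at 0 min. Among lower genes without a gap it was 9.79%, and 31% (13 of 42 with a window) among those with a late gap of 4-fold or more. Lower genes with a gap at 0 min had a match in 8.9%, and those with too few counts at 0 min in 20.4%. Higher genes held matches as well: 7.14% of those with a gap at 0 min (6 of 84) and 11.9% of those with too few counts (5 of 42). With a late gap of 4-fold or more, the share was 21.4% (3 of 14) for higher genes with a gap at 0 min and 12% (15 of 125) for lower ones. The interferon-type motif GAAANNGAAA, searched on both strands, was in 2.89% of all windows, in 11.4% of the lower genes with a gap at 0 min, in 3.98% of those without, and in 0 of 84 windows of higher genes with a gap at 0 min. These are matches of letters and say nothing of binding.

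**Figure D2:**
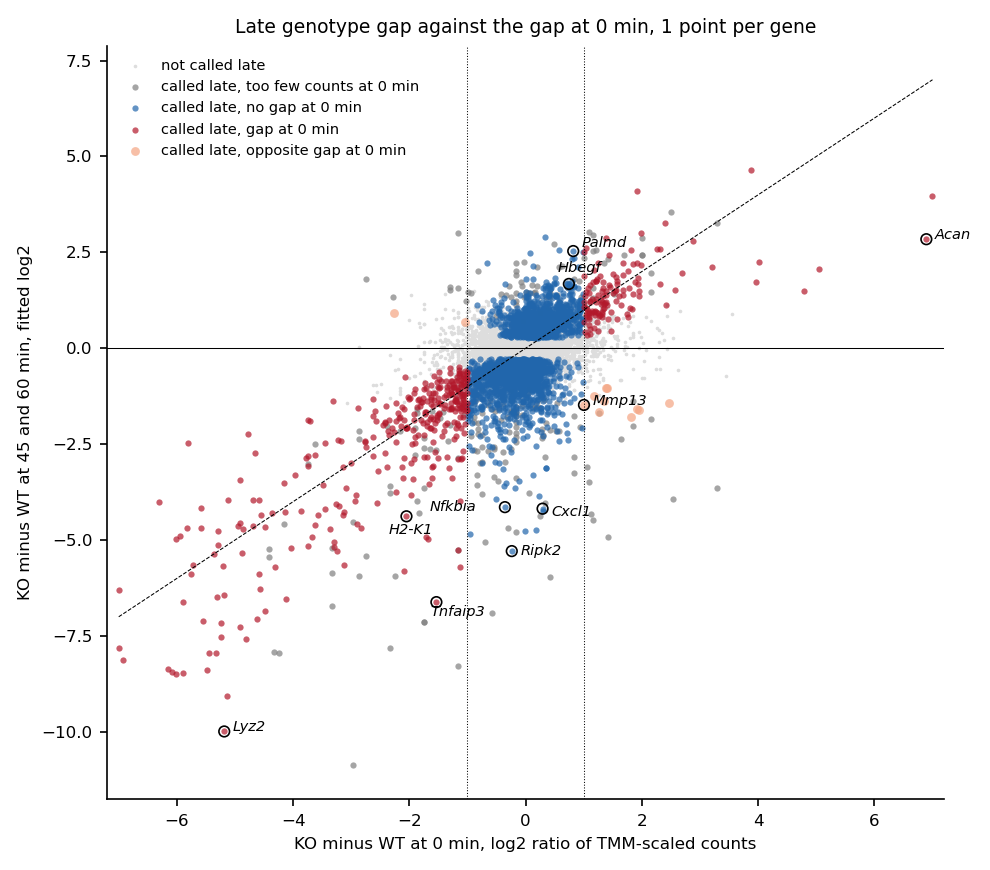
Each point is a gene. The x axis is its log2 ratio of KO to WT at 0 min and the y axis its fitted log2 gap at 45 and 60 min. Dotted lines mark 2-fold at 0 min and the dashed line marks equal gaps. Genes lower in KO without a gap at 0 min (blue) hang below the centre, with Ripk2, Nfkbia and Cxcl1 among the lowest, while those with a gap at 0 min (red) follow the dashed line. In all, 3 called genes beyond ±7 on the x axis are drawn at that limit, and 50 with 0 counts in a 0 min library are not drawn. Fitted values below about -8 belong to genes with almost no counts in KO and are not exact.

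Ripk2, Stx11 and Casp4 had some of the largest late gaps among genes without one at 0 min. Ripk2 (chromosome 4, 16122733 to 16163647), a kinase that relays signals from NOD receptors, had WT counts of 113, 150, 2458 and 1903 at 0, 15, 45 and 60 min, against KO counts of 107, 77, 53 and 50. The genotypes were within 2-fold of each other at 0 min and did not overlap late, where WT was 39.4-fold higher (95% counting interval 32.4 to 48.4; log2 gap -5.29 ± 0.15, adjusted p = 5.81e-255). Stx11, a syntaxin of vesicle fusion, had WT counts of 37, 49, 772 and 626 against KO counts of 47, 16, 26 and 22. Its late gap was -4.75 ± 0.18. Casp4, the inflammatory caspase that senses bacterial lipopolysaccharide, had WT counts of 19, 17, 115 and 125 against KO counts of 21, 7, 6 and 2, a late gap of -4.76 ± 0.36. All 3 genes had late KO levels under their 0 min KO level, while late WT levels were above their own. The change of the gap since 0 min was -5.05 for Ripk2, -4.93 for Stx11 and -4.75 for Casp4 on the log2 scale.

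NF-kB's own subunits and inhibitors were among the lower genes. Of 5 subunit genes 4 were lower in KO late, all without a gap at 0 min, but 1 of these is the targeted Rela, and the gene not called is the targeted Rel. Relb had 1556 and 1412 late counts in WT and 144 and 169 in KO (-3.14 ± 0.13), and Nfkb1 and Nfkb2 had gaps of -2.57 and -2.56. Of 18 feedback regulators, 16 were lower and none higher, against 13.4% and 10.4% of all tested genes. The gap had grown downward since 0 min in 12, against 3.42% of all tested genes. The list also counts Tnfaip2 and Tnfaip8, both lower, which are named for induction by TNF. Whether they act in feedback was not tested. Nfkbia, which encodes the inhibitor IkBa, had WT counts of 204, 1916, 3264 and 2527 against KO counts of 178, 121, 169 and 135. The late WT levels were 17.7-fold higher (counting interval 15.8 to 19.9), and the KO libraries stayed between 10.2 and 13.5 CPM. Bcl3, a nuclear IkB protein, had late counts of 687 and 780 against 33 and 62 (-3.86 ± 0.16). The feedback genes Tnip2 (-0.27) and Otulin (-0.02), whose products act in ubiquitin signalling, did not pass.

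A few feedback genes had both a gap at 0 min and one that grew. Tnfaip3 (chromosome 10, 19000910 to 19015657) encodes A20, a ubiquitin-editing brake on NF-kB. It had 109, 1086, 5115 and 3368 counts in WT, against 42, 22, 51 and 29 in KO. The 0 min gap was -1.54 (95% counting interval -2.09 to -1.01), and the late gap was -6.62 ± 0.16, or 98.6-fold, the change passing the test (-5.09 ± 0.39, adjusted p = 6.36e-36). No KO library reached the WT level at 0 min. Nfkbie, another IkB gene, went from -1.13 at 0 min to -5.70 late, with late WT counts of 1100 and 1211 against KO counts of 21 and 20. By contrast Tnip3, a partner of A20, had 0, 0, 1 and 0 counts in KO against 27, 22, 46 and 21 in WT, so its ratio at 0 min is only bounded (log2 at most -2.93).

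**Figure D3:**
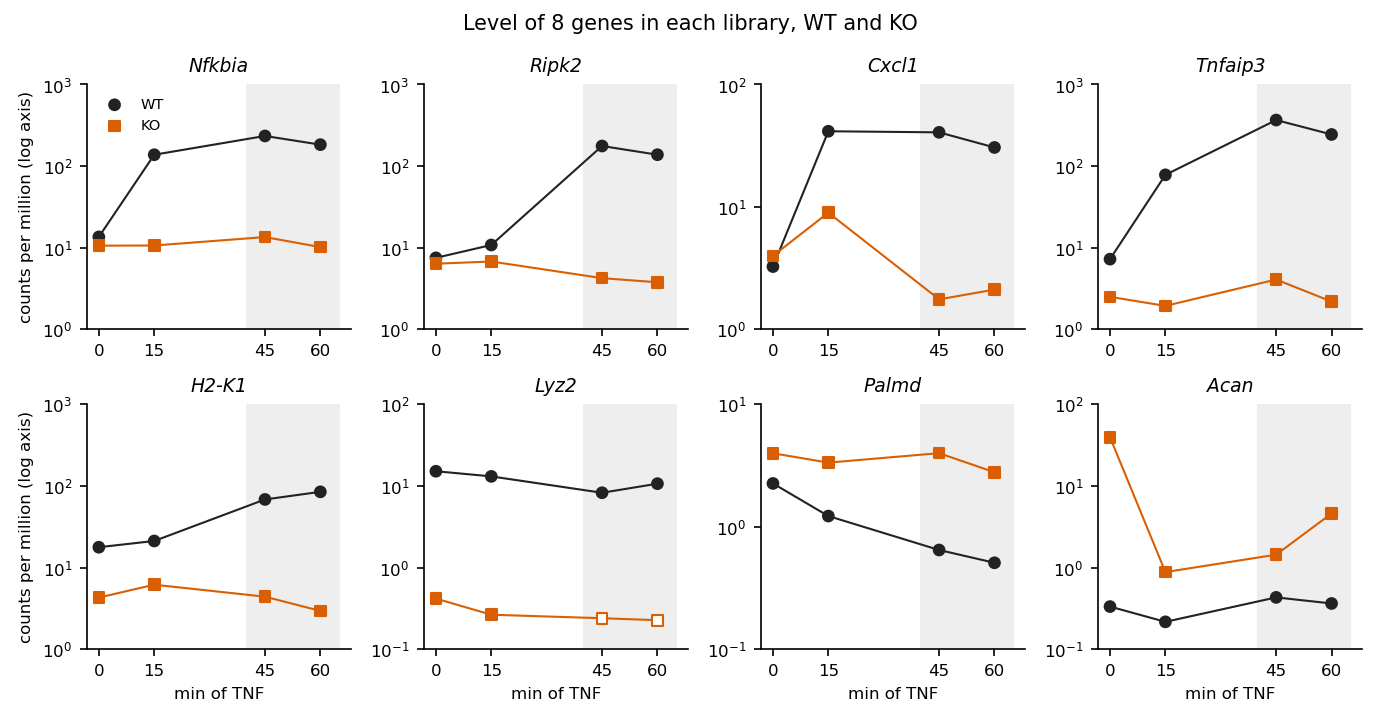
CPM of the TMM-adjusted library (log axis) against min of TNF in WT (black circles) and KO (orange squares), 1 library per point. The grey band marks the late libraries, and open squares are libraries with 0 counts, drawn at the level of 3 counts. Nfkbia, Ripk2 and Cxcl1 start within 2-fold and part after TNF. Tnfaip3 and H2-K1 start apart and part further, and Lyz2 is apart at every time. In Palmd WT is the line that goes down, and in Acan the KO 0 min library lies far above the other 7.

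Chemokines, which draw leukocytes to a tissue, held the lowest median of the 20 lists, -4.69 over 13 tested members. Cxcl2, Cxcl9, Cxcl10, Cxcl16, Ccl5 and Ccl20 passed the count filter only through the WT libraries, where they were high. The filter thus partly set this median and the count of lower genes, and nothing is read from the rank. Of the 13 tested members, 11 were lower and 2 higher, against 13.4% and 10.4% of all tested genes. Cxcl1, a neutrophil chemokine, had WT counts of 49, 577, 567 and 422 against KO counts of 67, 102, 22 and 28. Its KO library at 15 min was its highest in KO, and both late KO libraries lay below 0 min, with a late gap of -4.18 ± 0.19 (adjusted p = 5.21e-103). Ccl2, which attracts monocytes, had WT counts of 95, 619, 1767 and 2051 against KO counts of 25, 24, 40 and 23, so that it was apart at 0 min (-2.09) and further apart late (-5.81 ± 0.16). Cxcl10, a chemokine for T cells, had late counts of 688 and 715 against 3 and 6, but only 12 and 4 at 0 min. Ccl20 had late counts of 429 in WT against 1 in KO, and their ratio was 399 with a counting interval of 71.2 to 1.58e+04. The 2 chemokines that were higher in KO were Cxcl12 (0.91 ± 0.11), a homeostatic chemokine, with late counts of 630 and 780 in WT and 1118 and 1351 in KO, and Cxcl14 (1.11 ± 0.24). For Cxcl12 the 0 min counts were 1331 in WT and 1740 in KO, so the late WT libraries were the low ones.

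Among cytokines and growth factors, 11 of 22 tested genes were lower and 4 higher, against 13.4% and 10.4% of all tested genes. Csf1, the macrophage growth factor, had WT counts of 1254, 1455, 12164 and 13844 against KO counts of 1106, 820, 1061 and 1063 (-3.51 ± 0.12). Its KO levels stayed between 65.7 and 84.7 CPM in all 4 libraries, while WT went from 83.2 to 1003 CPM. Lif, an IL-6 family cytokine, had late counts of 838 and 965 against 331 and 252, with both KO values above the 167 of KO at 0 min. Hbegf, a ligand of the EGF receptor, went the other way, with WT counts of 124, 146, 281 and 323 against KO counts of 232, 331, 999 and 805 (1.68 ± 0.12, adjusted p = 4.99e-41). The gap of Hbegf had been 0.74 at 0 min and was larger late by 0.93 ± 0.25, a call lost in 8 of 17 alternatives, among them DESeq2 and 3 of the 4 single libraries left out. Against 15 min the difference was 0.21. Tnf itself had 53 and 30 late counts in WT and 0 in both late KO libraries, at least 25.7-fold lower (taking 3 counts over the group for 0).

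The adhesion molecules Icam1 and Vcam1, which hold leukocytes to the vessel wall, were lower with no gap at 0 min. Icam1 had WT counts of 71, 109, 1204 and 1314 against KO counts of 98, 78, 68 and 56 (-4.24 ± 0.15), and Vcam1 had 6154 and 4525 late counts against 444 and 350 (-3.64 ± 0.12). In KO, Icam1 stayed between 4.22 and 6.86 CPM, and the late levels of Vcam1 were below that at 0 min. The selectin Sele had WT counts of 1, 28, 86 and 39 against KO counts of 11, 6, 7 and 2, too few at 0 min to be placed. Over the list with matrix proteases, 8 of 16 were lower and 4 higher. Of 15 survival genes 4 were lower and 2 higher, with a median of -0.12. Over all tested genes 13.4% were lower and 10.4% higher, and nothing is read from the count of higher survival genes. The inhibitors of apoptosis Birc3 (-3.58 ± 0.14) and Birc2 (-1.78 ± 0.12) were lower, while Bcl2l1, which encodes Bcl-xL, was higher (0.66 ± 0.11). Cflar, the caspase-8 inhibitor, had a gap of -0.12 that did not pass.

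Of 23 TNF receptor and innate sensing genes, 15 were lower and 3 higher, against 13.4% and 10.4% of all tested genes. The higher count is near its share, so nothing is read from it. Tlr2, the receptor for bacterial lipoproteins, had WT counts of 47, 111, 286 and 272 against KO counts of 16, 2, 9 and 8, and the death receptor Fas had 614 and 630 late counts against 88 and 58. Both gaps had grown since 0 min (-3.21 and -2.54), for Fas from -0.45. Against 15 min the change for Tlr2 was 0.52, the other way. Ifih1, a cytoplasmic RNA sensor, had a gap of -1.72 at 0 min and -1.65 late. Tnfrsf1a, the main TNF receptor, was slightly higher in KO (0.46), and Ripk1, its adaptor kinase, was at -0.17 and did not pass. Tlr4 counts were 57 and 50 in WT against 74 and 77 in KO late, after 136 and 99 at 0 min. The calls of Bcl2l1, Tnfrsf1a and Tlr4 were lost when libraries were scaled by total counts, as were the 3 higher calls of the sensing list together.

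Every one of the 19 tested genes of class I antigen presentation was lower in KO (13.4% of all tested genes were). Of the 19, 9 had a gap at 0 min, 9 had none and 1 had too few counts there. The median went from -1.02 at 0 min to -1.90 late. H2-K1 (chromosome 17, 33996017 to 34000333), a class I heavy chain, had WT counts of 267, 294, 952 and 1168 against KO counts of 72, 70, 55 and 39. It was low in KO at every time, and its gap grew from -2.05 to -4.38 ± 0.16 (change -2.33 ± 0.30, adjusted p = 3.00e-12). B2m, the light chain, kept about the same gap, -1.52 at 0 min and -1.73 late, and its change did not pass (adjusted p = 0.81). Tapbp, which loads peptides, had no gap of 2-fold at 0 min (-0.36) and one of -2.15 ± 0.13 late. Heavy chain genes are near-identical copies of each other, so their counts are uncertain. DESeq2 called 13 of these 19 genes lower, and 12 were called without the WT 60 min library.

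**Figure D4:**
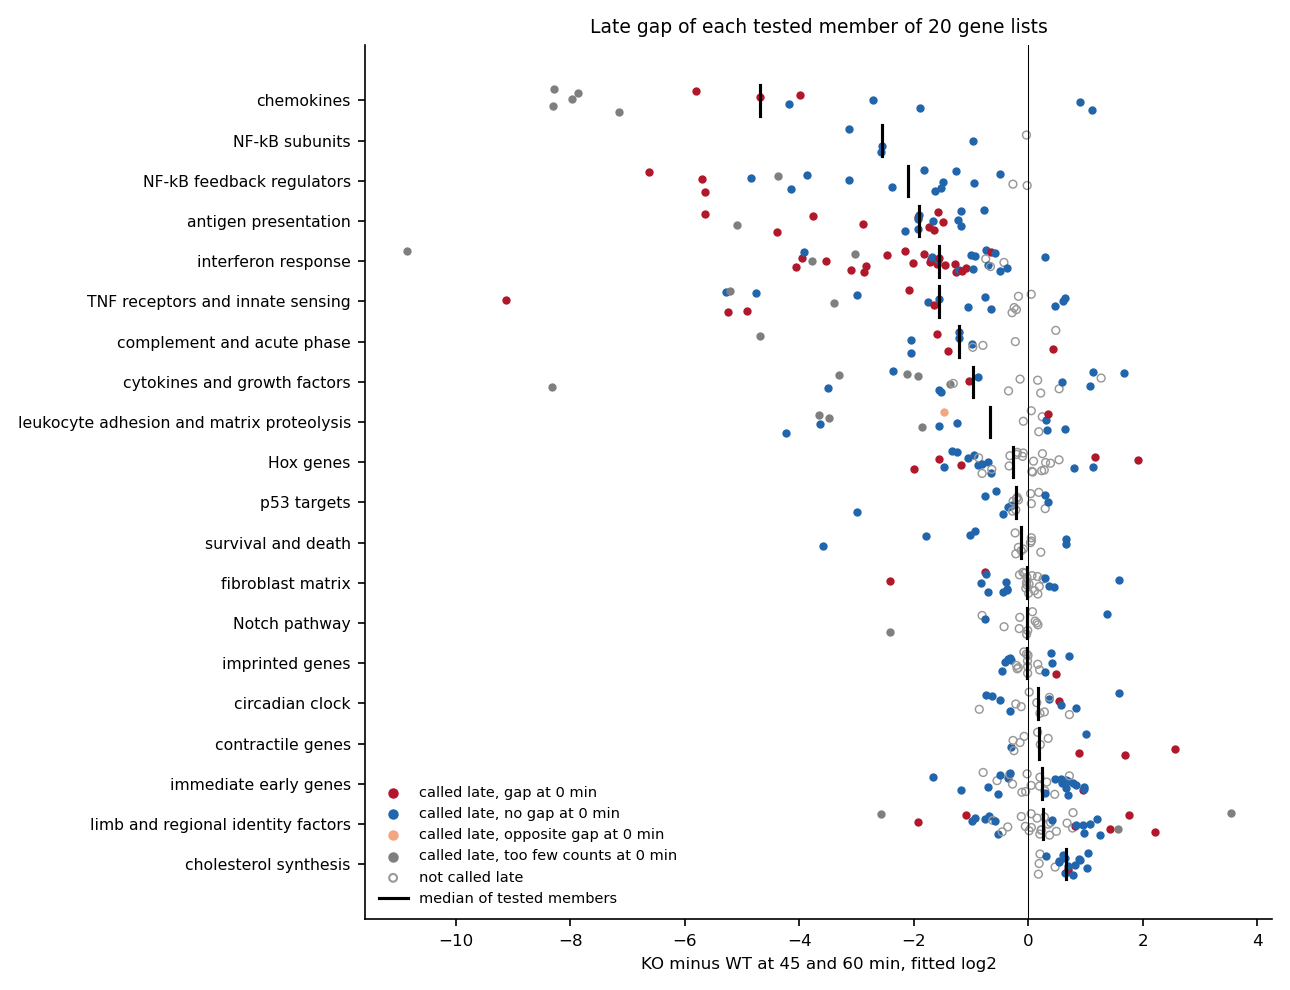
Fitted late log2 gap (KO minus WT at 45 and 60 min) of every tested member of the 20 gene lists, 1 point per gene, coloured by the state at 0 min, with open circles for genes not called and a black bar at the median. Chemokines, subunits, feedback regulators and antigen presentation lie to the left of 0, with medians of -4.69 to -1.90. Red points, with a gap already at 0 min, make up most of the interferon response, and cholesterol synthesis lies to the right, with a median of 0.66.

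Most of the lower interferon response genes were already apart at 0 min. Of 39 tested, 35 were lower late, 20 of them with a gap at 0 min, and 1, Stat3, was higher. Over all tested genes 13.4% were lower and 10.4% higher. The gap had grown downward in 5 of the 39, where 3.42% of all tested genes did so. The median was -1.28 at 0 min and -1.55 late. Isg15, a ubiquitin-like interferon product, had WT counts of 134, 79, 84 and 83 against KO counts of 29, 28, 15 and 20. Ifit1 and Oas2, which act on viral RNA, had gaps of -2.20 and -3.45 at 0 min and of -1.69 and -2.48 late. In none of these 3 genes was a late WT level above the 0 min WT level. Irf1, an interferon regulatory factor, was of the other kind, with WT counts of 224, 1162, 4053 and 3110 against KO counts of 176, 114, 203 and 234 (-3.92 ± 0.13, and -0.51 at 0 min). Gbp5, a guanylate-binding protein, had WT counts of 7, 11, 158 and 318 against KO counts of 1, 1, 0 and 0. By the lower end of the counting interval Gbp5 was at least 119.6-fold lower late. Macrophage markers were also low in KO at every time, and their part in the interferon result was not tested. DESeq2 called 21 of the 39 genes lower.

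Several genes known in macrophages were near 0 in KO. Of the 340 lower genes with a gap at 0 min, 65 had at most 3 counts in the 2 late KO libraries together. So had 58 of the 169 with too few counts at 0 min and 0 of the 1340 without a gap. The class rules largely set this difference, so nothing is read from it. A gene without a gap had 20 counts or more in a 0 min library and KO within 2-fold of WT there. Lyz2, the lysozyme of myeloid cells, had WT counts of 228, 182, 115 and 147 against KO counts of 7, 3, 0 and 0. By the lower end of the 95% counting interval it was at least 65.6-fold lower late, and the folds that follow are bounded likewise. C1qa, a complement subunit made by macrophages, had WT counts of 95, 46, 74 and 66 against KO counts of 3, 0, 0 and 0, at least 34.8-fold lower. Il10ra, Nlrp1b, Cd84, Ms4a14 and Cd180, known in leukocytes, had 0 late counts in KO and 84 to 93 in WT, at least 20.72- to 22.99-fold lower. Unlike these, Nlrp3, an inflammasome sensor, had 26, 106, 102 and 45 counts in WT, and 0 in all 4 KO libraries. The pan-leukocyte gene Ptprc was at 144 to 188 counts in WT and 0 to 2 in KO, whereas Cd68 (-0.06) and Fcer1g (-0.74) did not pass late. DESeq2 called neither Tnf nor Gbp5, and none of Lyz2, C1qa, Il10ra, Nlrp1b, Cd84, Ms4a14, Cd180 and Nlrp3.

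A total of 10 genes crossed over, being 2-fold or more higher in KO at 0 min and lower late. A2m, a protease inhibitor, had WT counts of 12, 12, 34 and 48 against KO counts of 52, 20, 10 and 15, and Mmp13, a collagenase, had 25, 14, 38 and 34 against 56, 25, 16 and 8. In both genes 0 min was the highest of the KO libraries and the late ones the lowest. Egln3, an oxygen sensor, went from 1.91 at 0 min to -1.60 ± 0.34 late, and Col15a1, a basement membrane collagen, from 1.35 to -1.37 ± 0.32. The transcription factor gene Zbtb7c went from 1.27 to -1.66 ± 0.34. The KO 0 min library is the one with high cartilage markers, Tg and Krt19, and the part of this in the cross-over was not tested. The late calls of A2m, Zbtb7c, Mmp13 and Col15a1 were lost when single late libraries were left out, and with the 15 min pair added 1 of the 10 genes was still called lower.

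Among genes higher in KO with a gap at 0 min, the 8 largest late gaps were those of Col2a1, Rarb, Acan, Slc2a3, Esrrg, Adamts3, Des and Dlgap1. Rarb, a retinoic acid receptor, had WT counts of 14, 10, 7 and 5 against KO counts of 82, 70, 50 and 60 (3.27 ± 0.40, adjusted p = 2.14e-14). The genotypes did not overlap at any time, as was also so for Adamts3, a procollagen protease, at 17 to 27 counts in WT and 96 to 145 in KO (2.58 ± 0.27). Des, the muscle intermediate filament desmin, had 9 to 22 counts in WT and 64 to 86 in KO. Col2a1, the main cartilage collagen, had 5219 counts in KO at 0 min and then 91, 114 and 389, against 14 to 27 in WT. Its late gap was 3.98 ± 0.24, and 3.43 smaller on the log2 scale than that at 0 min (growth -3.43 ± 0.42). Acan, the cartilage proteoglycan aggrecan, had 664 counts in KO at 0 min and 10, 18 and 61 later, against 3 to 6 in WT. Against 15 min in place of 0 min, the gaps of Col2a1 and Acan differed by 1.00 and 0.86 instead, which turns the direction of their change.

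Among higher genes without a gap at 0 min, the late gap came from either side. Palmd, palmdelphin, had WT counts of 34, 17, 9 and 7 against KO counts of 67, 38, 50 and 37, where WT was the lower late. Scx, the tendon transcription factor scleraxis, had WT counts of 21, 23, 17 and 32 against KO counts of 42, 43, 133 and 103, where KO was the higher late. Over all 1247 genes, KO stood 2-fold or more above its 0 min level in 89 and WT 2-fold or more below its own in 67. The share of all tested genes that did so was not counted. The other genes with the largest gaps were Mcf2l, Mab21l1, Prkg2, Cdh10, Tmem154 and Trib2, at 1.76 to 2.50. Of the 8 only Trib2, a pseudokinase, was called for a changed gap (0.96 ± 0.27), and that call was lost in 8 of 17 alternatives, among them DESeq2 and each of the 4 single libraries left out. Scaling by total counts left 267 of these 1247 genes called higher, and shifted the median gap of all genes to -0.17 from 0.02.

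Outside the NF-kB programme, cholesterol synthesis had 16 of 20 genes higher and none lower, with medians of 0.45 at 0 min and 0.66 late. Fdps, an enzyme of isoprenoid synthesis, had 187 and 206 late counts in WT and 359 and 396 in KO (1.05 ± 0.14), after 117 and 196 at 0 min. With total-count scaling 6 of the 20 were still called higher, and 7 without the WT 45 min library. Immediate early genes split, with 7 of 34 lower and 13 higher. For both lists the shares over all tested genes were 13.4% lower and 10.4% higher. Zfp36, which destabilises inflammatory mRNAs, had WT counts of 153, 690, 456 and 337 against KO counts of 224, 418, 118 and 113 (-1.66 ± 0.15). It peaked at 15 min in both genotypes, and its late KO levels were below the KO 0 min level. Junb was lower (-1.17 ± 0.12), whereas Jund (0.84 ± 0.14) was higher, and Egr1 (0.20 ± 0.12) did not pass. Fos passed at 0.57 ± 0.21 but was at -0.0025 without the KO 45 min library.

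Position genes gave calls in both directions. Of 34 Hox genes, which mark the position of cells along body axes and limbs, 12 were lower and 4 higher, where 13.4% and 10.4% of all tested genes were. The higher count is near that share, so nothing is read from it. The higher ones were Hoxd10, Hoxd11, Hoxd12 and Hoxd13 at the distal limb end of their cluster, as in Hoxd13 with 93 and 120 late counts in WT and 216 and 227 in KO. At the other end of that cluster Hoxd3 (-2.0 ± 0.44) and Hoxd4 (-1.55 ± 0.23) were lower, as was Hoxc6 (-1.33 ± 0.12) in another cluster. Limb and regional factors gave 9 lower and 13 higher of 42. Tbx4 and Pitx1, known for the hind limb, had late gaps of 1.76 ± 0.25 and 1.43 ± 0.27 beside 1.57 and 1.5 at 0 min. The Hox genes named here, Tbx4 and Pitx1 are examples from lists with calls in both directions. Whether the cultures differed in position of origin was not tested. Fibroblast matrix genes gave 9 lower and 4 higher of 28, with a median of -0.03.

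The remaining lists held 12 to 21 tested genes. Complement and acute phase genes had 8 lower and 1 higher of 13, led by C3 (74 and 71 late counts against 2 and 3) and Ptx3 (-2.05 ± 0.13), while Ptgs2, the inducible cyclooxygenase, was higher (0.44). Of 12 contractile genes 1 was lower and 4 higher, of 18 clock genes 4 and 5, of 21 imprinted genes 5 and 5, of 19 p53 targets 7 and 2, and of 13 Notch genes 2 and 1. Beside these stand 13.4% lower and 10.4% higher over all tested genes, and nothing is read from counts near those shares, such as those of the Notch genes. In the Notch list Lfng, which modifies Notch receptors, had WT counts of 47, 44, 83 and 151 against KO counts of 53, 59, 268 and 286 (1.37 ± 0.16). It was level at 0 min and higher in KO at both late times. The 2-fold line at 0 min divides close neighbours: Tec (-1.0) and Hoxc4 (-1.01) fell inside it and Lama4 (-0.99) and Tap2 (-0.99) outside, as did Insig1 (1.00) inside and Mcf2l (0.98) outside on the higher side.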

How the data were processed

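The table as deposited by the authors gives unnormalized whole-number counts, 1 column a library, beside each gene's position and exon length, per the file headers. The submitters' processing notes name cutadapt 1.12, STAR, featureCounts 1.5.0, DESeq2 and mm10. Neither strandedness, nor the handling of multimapping reads, nor which annotation was counted is stated there or in the labels, so overlapping genes, antisense genes and near-identical copies are uncertain. Of 45706 genes listed, 98.77% carried a symbol, and no 2 libraries were duplicates (chi-square per degree of freedom of 8.43 or more).

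Genes with 10 counts in 2 of the 4 late libraries were kept and X and Y genes removed, which left 13917. A gene that is high in 1 genotype alone can pass this filter, which partly sets list counts and medians. Counts were scaled by TMM over all 8 libraries (factors 0.814 to 1.22) and tested with edgeR 4.0.16 in R 4.3.3, KO against WT with time as a block, 1 residual degree of freedom and a Benjamini-Hochberg threshold of 0.05. The change of the gap used the 0 min pair as well, 6 libraries with 1 residual degree of freedom. With so few residuals the spread came almost wholly from the value shared by all genes. SE is the log2 value divided by the square root of F. Ratios of single libraries carry exact Clopper-Pearson 95% intervals. Intervals and the floor of 3 counts cover counting error only and hold no spread between cultures. PCR reads are not independent molecules, so even counting error may be larger than they show. Members, gene lists and alternatives were chosen with earlier results of these data known.

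Named genes are the 8 largest gaps with a mean of 20 late counts in the classes with and without a gap at 0 min, 5 in the other 2 classes, 4 of each list by p, and 10 fixed genes. Values of other list members are given as examples chosen after they were seen. On simulated counts with 66 or 67 changed genes per size, the late fit recovered 44.8% of 1.5-fold, 88.1% of 2-fold and 100% of 4-fold changes. The changed-gap fit recovered 5.97%, 38.8% and 78.8%. Counts were drawn with the spread that the fit itself had estimated, around 1 mean per gene for both genotypes and all times. Only genes with a mean of 20 late counts or more were changed. Differences between cultures were not simulated, so these rates are not the power of the real design. Alternatives were DESeq2 1.42.0, limma-voom 3.58.1, other scalings, filters, robust estimation, no time block, the 15 min pair, a test against 1.5-fold, other lines at 0 min, X and Y kept, and each library left out in turn. Plots come from matplotlib 3.10.9.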

Additional observations from a re-analysis of the deposited data

Results flagged for a closer look

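The gap between genotypes late differed from that at 0 min, by the test of the difference, for 476 genes downward and 159 upward in KO. Among named genes the change of the log2 gap was -5.09 for Tnfaip3, -5.05 for Ripk2, -4.93 for Stx11, -4.75 for Casp4, -4.54 for Icam1, -4.47 for Cxcl1, -3.88 for Tnfaip2, -3.79 for Nfkbia, -3.73 for Ccl2, -3.41 for Irf1 and -3.17 for Csf1. In each of these the late WT levels were above WT at 0 min.

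For the targeted genes the change was -0.72 (Rela) and -1.53 (Rel). The call was lost in 11 of 17 alternatives for Rela, among them DESeq2 and each single library left out, and in 3 of 17 for Rel. For genes in which 0 min was the highest of the 4 KO libraries the change was -3.99 for Acan, -3.43 for Col2a1, -3.55 for A2m, -3.49 for Egln3, -2.92 for Zbtb7c, -2.71 for Col15a1 and -2.48 for Mmp13. All of these downward calls were lost with DESeq2. In all, the call was lost in 5 alternatives each for Acan, Col2a1 and Mmp13, and in 4 for Zbtb7c. For Egln3 and Col15a1 it was lost in 2, and for A2m in 1. The change was upward in Jrkl (1.72), Slc2a3 (1.58) and Trib2 (0.96). These calls were lost in 6, 8 and 8 of 17 alternatives, among them DESeq2 and, for Slc2a3 and Trib2, each of the 4 single libraries left out. Slc2a3, a glucose transporter gene, had 19 and 12 late counts in WT and 89 and 88 in KO.

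Outside the tested genes, Xist was at 1278 CPM or more in every WT library and at most 2.31 CPM in KO.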

How the results depend on the processing

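The count of genes lower in KO late, 1859, was 748 with DESeq2, 1107 without the time block, 770 against 1.5-fold, and 897 to 1136 when a library was left out. The count of higher genes, 1444, was 289, 571, 234 and 348 to 630 under the same settings, 390 with total counts and 919 with the 15 min pair added. Of the 831 lower and 328 higher genes with a gap of 2-fold or more, DESeq2 called 493 and 104 and the fit without the block 736 and 237. The share of calls that were higher was 43.7%, and 17.9% with total counts, 27.9% with DESeq2, 23.3% against 1.5-fold and 27.0% to 35.7% with a library left out. For gaps that moved downward, 476, the counts were 80 with DESeq2, 69 without the block, 183 with total counts, 172 against 1.5-fold, 310 with 15 min as the baseline and 97 to 208 with a library left out. For gaps that moved upward, 159, they were 1, 1, 18, 10, 62 and 4 to 25, and 100 with TMM from the 6 libraries alone. With a library left out no time block can be kept, and the lone library is assumed to vary like the others. The cause of these shifts was not tested. A line of 1.5-fold at 0 min gave 543 lower and 292 higher genes with a gap, and one of 3-fold 208 and 40.

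Of 2382 values of named genes' late gaps under alternatives, 2189 kept their direction and call, 190 lost the call, 2 gained one, and Fos turned to -0.0025 without the KO 45 min library. Over the 4 libraries left out in turn, Fos ranged from -0.0025 to 1.03. Among named genes called for a changed gap with either baseline, taking 15 min turned the direction in Col2a1 (1.00), Acan (0.86), Gadd45b (0.34), Tlr2 (0.52) and Egr1 (-0.68), of which Egr1 was called only against 15 min. The 15 min baseline was chosen after seeing the data. The labels give no replicate numbers, so libraries were matched by time alone. With 1 residual degree of freedom, calls of small gaps rest on the spread shared by all genes.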

Other observations

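Genes of the mitochondrial genome were tested with the rest. Of 9, 7 were lower in KO late and none higher (edgeR quasi-likelihood test), where 13.4% of all tested genes were lower. Their summed level was 388 to 399 CPM in the late WT libraries and 363 and 215 CPM in KO at 45 and 60 min, beside 516 and 336 CPM at 0 min in WT and KO. At 15 min KO was the higher, with 378 CPM against 277 in WT. The KO 60 min library was the lowest of the 8. mt-Nd5 had 410 and 412 late counts in WT and 292 and 139 in KO.

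Called classes were also described by their share of protein-coding genes. Protein-coding genes were 92.9% of the 1340 lower genes without a gap at 0 min and 91.5% of the 340 with one, against 84.6% of all tested genes, and 74.0% of the 169 with too few counts at 0 min. Among higher genes without a gap at 0 min they were 87.5%, and 62% of the 71 with too few counts there. The classes with too few counts are set by low counts at 0 min, so nothing is read from their lower shares.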
